A study of Homo sapiens with 9 samples.

Results

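Integrins, laminins and the proteins that tie them to the basement membrane were examined in RNA sequencing of HMEC-1, an immortalised line of human dermal microvascular endothelial cells, treated with trimethylamine N-oxide (TMAO), a metabolite that arises from gut bacterial breakdown of dietary choline and carnitine. The genes were all rows of the deposited count table whose symbol names an integrin alpha or beta subunit or a laminin chain, together with the linkers NID1, NID2, AGRN and DAG1. These made 42 of 29740 genes, of which 18 were integrin alpha subunits, 8 integrin beta subunits, 12 laminin chains and 4 linkers. Cells received 50 µM TMAO for 24H (TMAO 24H) or 48H (TMAO 48H) or served as controls (CTRL), with 3 libraries in each of the 3 groups. According to the study's methods, TMAO was given in medium with reduced serum. The study states that untreated cells of both time points were combined as controls, and the labels give no time for any control library. Neither treated group therefore has controls of its own time alone, and TMAO and time in culture cannot be told apart. All 9 libraries came from a single cell line, and no label says that libraries of a group were separate cultures, so the p-values measure only the spread between these libraries, which may be technical.

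Integrins are receptors made of 1 alpha and 1 beta subunit that bind the extracellular matrix outside the cell and, through adaptor proteins, the actin cytoskeleton inside it. Laminins are cross-shaped trimers of 1 alpha, 1 beta and 1 gamma chain that polymerise into a sheet under the endothelium, where the chains alpha 4 and alpha 5 are the usual ones of vessels. Nidogens, encoded by NID1 and NID2, bridge the laminin sheet and the collagen IV network, whereas agrin (AGRN) and dystroglycan (DAG1) couple laminins to the cell surface. The basement membrane they form anchors endothelial cells and takes part in the barrier of small vessels.

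Total estimated counts per library ranged from 25205756 to 36927373. Levels below are normalised counts, which are counts scaled to a common library size by the TMM method. A gene passed the test when its adjusted p was under 0.05 in edgeR's quasi-likelihood test, adjusted by Benjamini-Hochberg over the 14740 genes tested, and adjusted p-values are from this test unless another tool is named. With 3 libraries against 3, the smallest p that permuting the libraries could give for 1 gene is 0.1. Both of the following libraries stood apart from the rest. Ribosomal RNA took up 31.5% of TMAO 24H replicate 1, as summed over 6 genes, where the remaining libraries had 1.64% to 7.46%. In TMAO 48H replicate 3 the summed level of 11 keratinocyte or other epithelial markers was 491 normalised counts, against 2069 to 3578 in the other 8. All 15 endothelial markers were measured, with PECAM1 at 10447 and CDH5 at 21222 normalised counts on average in CTRL. Their summed level was 102330 to 113570 in CTRL, 101790 to 108130 at TMAO 24H and 92716 to 100490 at TMAO 48H. At TMAO 48H against CTRL, 10 of the 15 were lower and 5 were higher. An adjusted p under 0.05 was reached by 8, all of them lower, where 5.29% of all tested genes passed with a lower level. Of the 10 leukocyte markers, 3 had counts in every library and were tested. The list summed to 667 to 754 normalised counts in CTRL, 731 to 809 at TMAO 24H and 745 to 785 at TMAO 48H. Within it, CD3E was at 0 in all 9 libraries and PTPRC did not exceed 3.02 normalised counts in any.

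The level of each gene was compared within CTRL as normalised counts per kilobase of its longest annotated transcript. On this scale ITGB1, the beta subunit shared by most matrix-binding integrins, stood first with 10432 ± 214 (SD, n = 3), and LAMB1, the laminin beta 1 chain, came next with 4286 ± 361. ITGA5, the alpha subunit of the fibronectin receptor, followed with 3497 ± 297 and NID1 with 3310.2 ± 317, and these 2 did not differ beyond their spread. With the mean transcript length they were at 13007 and 3443, so this closeness holds only for the longest transcript. With the longest transcript LAMB2, AGRN, LAMC1 and LAMA4 lay between 1959 and 2262, and in this order neighbours differed by less than their spread. With the mean length they were at 11232, 7305, 8641 and 7053. The laminin pool per kilobase of the longest transcript consisted mostly of LAMA4 among the alpha chains, at 64.4% ± 1.4 in CTRL. Among the beta chains it was mostly LAMB1, at 63.8% ± 1.19. With the mean transcript length LAMA4 was at 7053 and LAMA5 at 6800 per kilobase, so the size of this lead depended on the length chosen. LAMB1 and LAMB2 were then at 15168 and 11232. Among the beta subunits ITGB1 held 79.5% ± 0.390 and ITGB5, the partner of alpha V for vitronectin, 13.3% ± 0.250. NID2 was at 297 ± 26.7 per kilobase, below NID1 in every library.

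**Figure D1:**
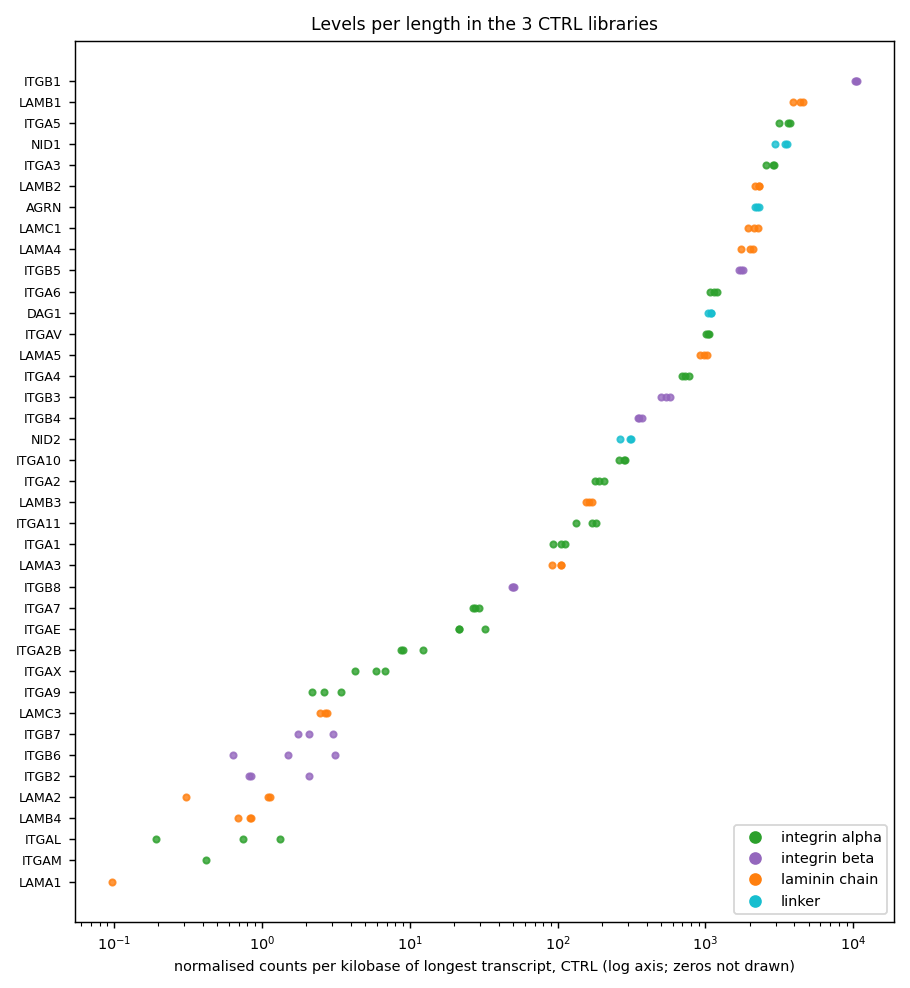
Levels of the integrin, laminin and linker genes in the 3 CTRL libraries, as normalised counts per kilobase of the longest transcript (log axis), 1 point per library and genes ordered by their mean. ITGB1 lies at the top with a mean of 10432, and the genes below ITGAE in the plot lie under 20 per kilobase.

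Of the 42 genes, 34 passed the expression filter and were tested, namely 14 alpha subunits, 6 beta subunits, 10 laminin chains and all 4 linkers. The other 8 were ITGA8, ITGAD, ITGAL, ITGAM, ITGB2, ITGB7, LAMA1 and LAMB4. ITGAD, a leukocyte alpha subunit, was at 0 in all 9 libraries, which allows up to 3 counts per library. ITGB2, the beta subunit shared by most leukocyte integrins, had 4 to 11 counts per library and summed to 64, and its partner ITGAL summed to 32. ITGAM summed to 4 counts and ITGA8 to 3 over the 9 libraries. ITGB7 summed to 57, LAMB4 to 25 and LAMA1, a chain of the early embryo, to 20. None of these 8 was tested between groups, and the limit given for a count of 0 covers counting error only.

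At TMAO 24H none of the 34 genes passed the test against CTRL with an adjusted p under 0.05 in edgeR's quasi-likelihood test, where 0.095% of all 14740 tested genes did. At an unadjusted p under 0.05 there were 5 of the 34 (7.24% of all genes), namely AGRN, ITGA2, ITGA4, LAMA5 and LAMB2, and DESeq2 passed 1, AGRN. The median log2 fold change was -0.0067 over the 34 genes and -0.00042 over all tested genes, and 17 of the 34 had a value below 0, where 50.2% of all genes had. When a change of 1.4-fold or more was required too, the count was 0 as well, where 0.0475% of all genes were called, all of them lower. At TMAO 48H, 10 of the 34 passed, 9 with a lower level and 1 with a higher one, where 10.4% of all genes passed (5.29% lower and 5.14% higher). The 9 genes that fell were NID2, ITGA11, ITGB5, ITGB8, ITGA4, ITGA5, LAMA4, LAMB1 and LAMA5, and the gene that rose was LAMA3. As these are bulk libraries, fewer cells of a kind and less RNA per cell cannot be told apart. The summed level of the endothelial markers was lower too, as given above, while 5 of the 15 were higher without passing. The part of these markers in the falls was not tested. Of all counts outside ribosomal RNA genes, the 42 genes took 0.775% to 0.850% in CTRL, 0.787% to 0.818% at TMAO 24H and 0.734% to 0.766% at TMAO 48H. The median log2 fold change was -0.095 over the 34 genes and 0.0040 over all tested genes, and 23 of the 34 had a value below 0, where 49% of all genes had. At an unadjusted p under 0.05 there were 17 of the 34, where 25.8% of all genes lay. The tested integrin, laminin and linker genes had a median of 1839 normalised counts, against 746 for all tested genes, and the part of this depth in the share that passed was not tested. Without CTRL replicate 1 the count at TMAO 48H was 6, and without CTRL replicate 2 it was also 6. Without both libraries that stood apart it was 0 at TMAO 24H and 12 at TMAO 48H. DESeq2 passed 13 at TMAO 48H, 12 lower and 1 higher.

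With the 1.4-fold requirement, 2 genes were called at TMAO 48H, NID2 and ITGA11, both lower, where 1.8% of all tested genes were called (0.916% lower and 0.882% higher). Levels in the 3 libraries at TMAO 48H did not overlap those in CTRL for 13 of the 34 genes, 12 of them lower, where 27.8% of all genes did not overlap. They were the 9 genes that fell, AGRN, ITGA3 and ITGB4, which were also lower, and ITGA7, which was higher. At TMAO 24H the groups did not overlap for 7 of the 34, 3 of them higher, where 14.2% of all genes did not overlap. Between TMAO 48H and TMAO 24H, 7 genes passed, all lower at 48H, where 7.53% of all genes passed and 3.77% were lower. They were NID2, ITGA11, ITGA4, ITGB5, LAMA4, ITGA5 and ITGA6, of which NID2 and ITGA11 were again called with 1.4-fold, where 1.71% of all genes were called (0.848% lower and 0.862% higher). This comparison shares its libraries with the other 2, so its values are not a separate line of evidence.

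**Figure D2:**
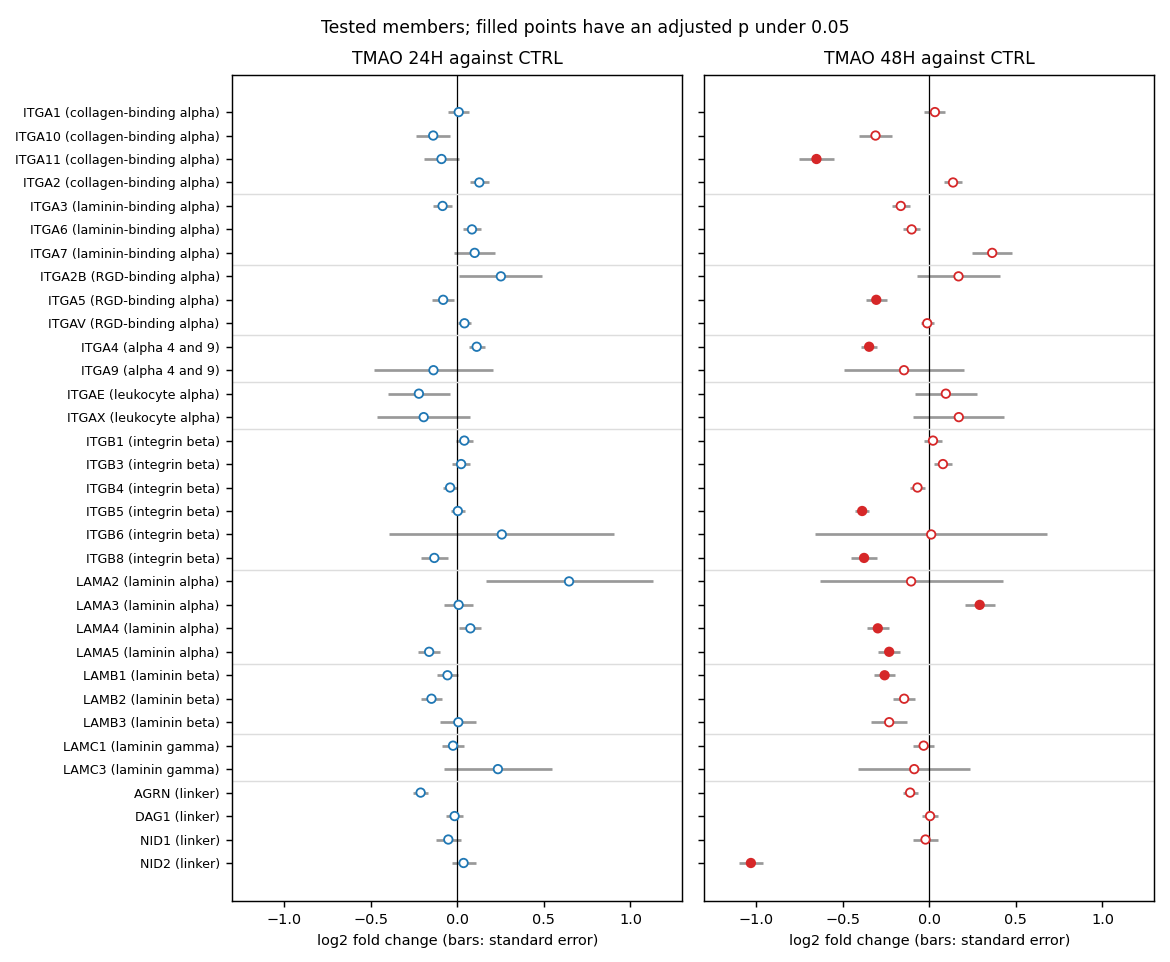
Log2 fold changes of 33 of the 34 tested genes against CTRL at TMAO 24H (left) and TMAO 48H (right), with bars for the standard error and filled points for an adjusted p under 0.05. All points are open at TMAO 24H, while at TMAO 48H 10 are filled, NID2 lies farthest left at -1.03 and LAMA3 is the filled point right of 0.

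Among the 4 linkers, NID2 fell and the other 3 did not pass the test at either time. Normalised counts of NID2 were 1517, 1488 and 1282 in CTRL, 1459.7, 1451 and 1483 at TMAO 24H and 636, 731 and 731 at TMAO 48H. The 3 libraries at TMAO 48H lay below all 6 others, and those at TMAO 24H lay within the range of CTRL. The level at TMAO 48H was 0.489 times that in CTRL, a log2 fold change of -1.03 (SE 0.0707, adjusted p = 4.36e-06), whereas the value at TMAO 24H was 0.036 (SE 0.0698, adjusted p = 0.964). Against TMAO 24H the value was -1.07 (SE 0.0707, adjusted p = 2.23e-06). NID1, which encodes the other nidogen, had 20778, 20161 and 17294 in CTRL, 18206, 18239 and 19715 at TMAO 24H and 17410, 19664 and 20268 at TMAO 48H. Its groups overlapped, and its log2 fold change at TMAO 48H was -0.022 (SE 0.0722, adjusted p = 0.887) with a 95% interval of -0.18 to 0.13. NID2 per 100 counts of NID1, a ratio chosen after its values were seen, was 7.3, 7.38 and 7.41 in CTRL, 8.02, 7.96 and 7.52 at TMAO 24H and 3.65, 3.72 and 3.61 at TMAO 48H. The ratio was lower in each library at TMAO 48H than in any other library.

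AGRN encodes agrin, a heparan sulphate proteoglycan that binds laminin and dystroglycan. Its normalised counts, given because DESeq2 passed it, were 16915, 16594 and 15968 in CTRL, 14007, 13880 and 14821 at TMAO 24H and 15046, 15489 and 15274 at TMAO 48H. Levels at TMAO 24H lay below all of CTRL and those at TMAO 48H lay between them and CTRL. The log2 fold change at TMAO 24H was -0.21 (SE 0.0429, adjusted p = 0.120) with edgeR and -0.21 (adjusted p = 0.000194) with DESeq2. It was -0.23 (adjusted p = 0.0352) after a correction for transcript length and -0.12 (adjusted p = 0.697) after one for GC content. At TMAO 48H it was -0.11 (SE 0.0428, adjusted p = 0.118) with edgeR and -0.11 (adjusted p = 0.0405) with DESeq2. There it was -0.15 (adjusted p = 0.0184) with the length correction and 0.023 (adjusted p = 0.827) with that for GC content. DAG1, which encodes both subunits of dystroglycan, was measured at 6291 ± 195 normalised counts in CTRL and 6308 ± 304 at TMAO 48H (SD, n = 3), with a 95% interval of the log2 fold change of -0.10 to 0.11.

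The nidogen promoters are shown because the paralogues NID2 and NID1 differed at TMAO 48H, and those of ITGA11 and ITGB5 because these had the next largest falls among the genes past the test. Each is the 250 bases before the RefSeq start site on GRCh38.p14, the first of 3 listed sites for ITGB5, written 5′ to 3′ with the GC box, GGGCGG or its reverse complement CCGCCC, in capitals.

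NID2 (chr14:52069060-52069309, minus strand): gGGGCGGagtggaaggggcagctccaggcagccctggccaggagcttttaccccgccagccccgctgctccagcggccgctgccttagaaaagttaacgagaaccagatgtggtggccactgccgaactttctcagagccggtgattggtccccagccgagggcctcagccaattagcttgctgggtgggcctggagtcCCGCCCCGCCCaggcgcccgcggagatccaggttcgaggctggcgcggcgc

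NID1 (chr1:236065091-236065340, minus strand): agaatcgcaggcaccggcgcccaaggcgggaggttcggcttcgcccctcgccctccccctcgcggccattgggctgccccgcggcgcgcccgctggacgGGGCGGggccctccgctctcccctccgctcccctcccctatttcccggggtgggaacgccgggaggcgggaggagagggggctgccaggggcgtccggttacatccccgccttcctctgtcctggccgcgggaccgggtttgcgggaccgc

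ITGA11 (chr15:68432164-68432413, minus strand): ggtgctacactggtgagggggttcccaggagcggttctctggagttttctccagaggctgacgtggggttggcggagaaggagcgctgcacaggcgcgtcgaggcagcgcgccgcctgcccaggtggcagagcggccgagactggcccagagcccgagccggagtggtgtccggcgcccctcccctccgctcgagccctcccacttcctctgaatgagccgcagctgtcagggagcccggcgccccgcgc

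ITGB5 (chr3:124901419-124901668, minus strand): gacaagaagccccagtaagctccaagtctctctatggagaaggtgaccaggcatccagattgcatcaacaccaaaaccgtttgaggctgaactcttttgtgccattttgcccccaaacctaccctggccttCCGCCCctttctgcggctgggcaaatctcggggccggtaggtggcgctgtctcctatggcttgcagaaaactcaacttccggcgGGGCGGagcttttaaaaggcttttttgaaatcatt

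The NID2 window held 3 GC boxes and a GC content of 68%, that of NID1 held 1 with 76.4%, that of ITGB5 held 2 with 52.8%, and that of ITGA11 held none with 71.2%. The median over all 35116 RefSeq promoters was 58%, and 42.6% of them held a GC box on either strand. Promoters were matched for 29 of the 42 genes, of which 17 held a GC box at 1 or more of their listed start sites. The shares of all promoters count each start site singly. A gene with several sites has more windows, so its count and these shares are not alike, here and for the motifs below. The AP-1 motif TGANTCA, searched likewise, was in 6.57% of all promoters and in those of LAMA3 and LAMB3. GGAATG, the core bound by TEAD factors, was in 11.9% of all promoters and in those of ITGA10, ITGA5, ITGB1 and LAMA2. TATAAA was in 10.7% of all promoters and in those of ITGA6 and ITGB1. These are matches of letters in a window and not measured sites.

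**Figure D3:**
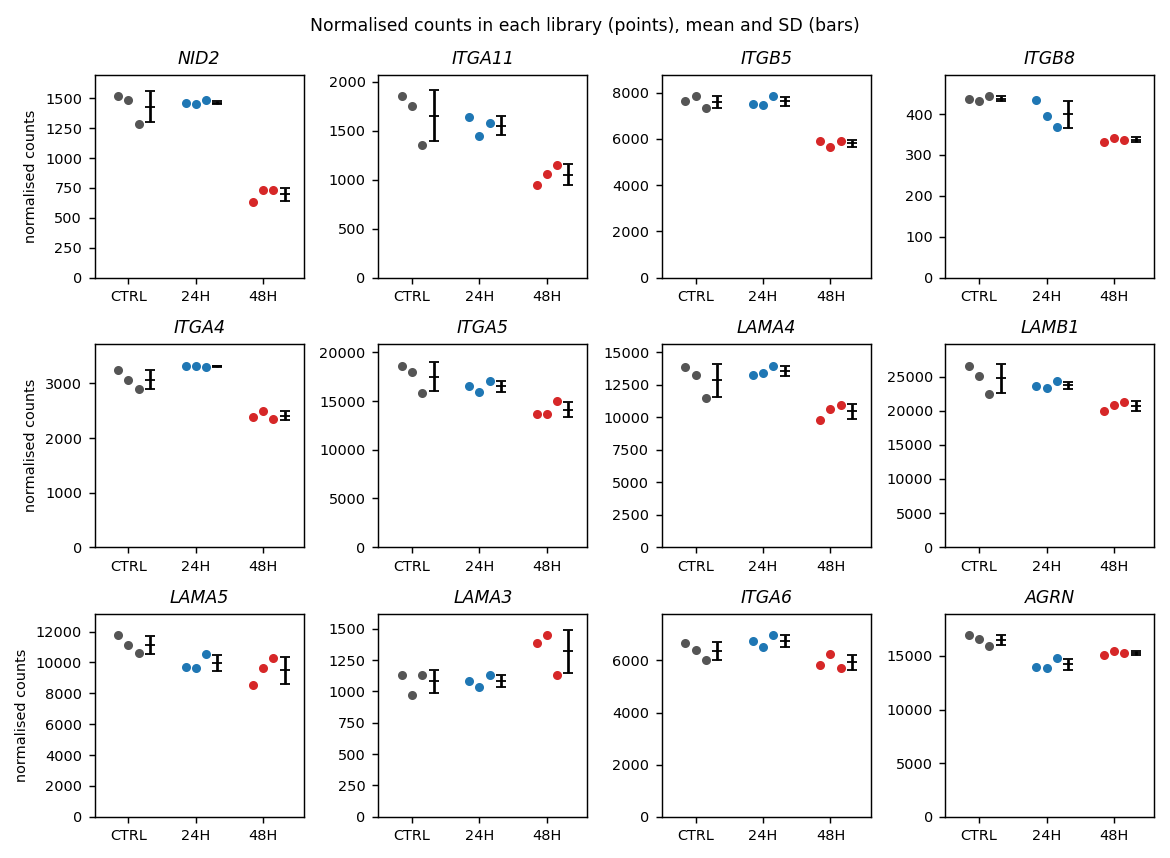
Normalised counts in each of the 9 libraries for the 11 genes with an adjusted p under 0.05 in any comparison and for AGRN, with points for libraries and bars for the mean and SD of 3 (axes start at 0). For NID2 the 3 libraries at TMAO 48H lie between 636 and 731, and all other libraries between 1282 and 1517.

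Of the 10 tested laminin chains, LAMA4, LAMB1 and LAMA5 fell and LAMA3 rose at TMAO 48H. LAMA4 encodes the alpha chain of laminin-411, a laminin of vessels. Its normalised counts were 13840, 13205 and 11440 in CTRL, 13225, 13377 and 13943 at TMAO 24H and 9779, 10611 and 10914 at TMAO 48H. Each library at TMAO 48H lay below each of the other 6. Its log2 fold change was -0.30 (SE 0.0642, adjusted p = 0.0109) against CTRL and -0.37 (SE 0.0642, adjusted p = 0.00285) against TMAO 24H. The first of these did not pass without CTRL replicate 1, at -0.24, or without CTRL replicate 2, at -0.28.

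LAMB1 encodes the beta chain of laminin-411 and laminin-511. It counted 26565, 25107 and 22460 in CTRL, 23664, 23293 and 24294 at TMAO 24H and 19893, 20776 and 21297 at TMAO 48H. The groups CTRL and TMAO 48H did not overlap, and TMAO 24H lay within CTRL. Its log2 fold change at TMAO 48H was -0.26 (SE 0.0587, adjusted p = 0.0143), and it did not pass without CTRL replicate 1, at -0.20, without CTRL replicate 2, at -0.25, or without TMAO 48H replicate 2, at -0.26. Against TMAO 24H it was -0.20 (adjusted p = 0.0552), and it passed there in 7 other settings, DESeq2 among them (adjusted p = 0.00289). LAMC1, the gamma chain that both trimers share, was measured at 16590 ± 1286 normalised counts in CTRL and 16215 ± 1014 at TMAO 48H (SD, n = 3). Its 95% interval of the log2 fold change was -0.16 to 0.10. LAMB2, the other beta chain common in vessels, had a log2 fold change of -0.15 (SE 0.0631, adjusted p = 0.164), and of -0.22 (adjusted p = 0.0343) without TMAO 48H replicate 3. It was -0.068 (adjusted p = 0.428) without TMAO 48H replicate 1 and -0.073 (adjusted p = 0.512) after GC correction.

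LAMA5 encodes the alpha chain of laminin-511. Its normalised counts were 11753, 11123 and 10583 in CTRL, 9717, 9638 and 10527 at TMAO 24H and 8557, 9631 and 10296 at TMAO 48H. All treated libraries lay below all of CTRL, while both treated groups overlapped each other. The log2 fold change was -0.16 (SE 0.0640, adjusted p = 0.632) at TMAO 24H and -0.23 (SE 0.0640, adjusted p = 0.0363) at TMAO 48H. The second did not pass after GC correction, at -0.11 (adjusted p = 0.384), nor without CTRL replicate 1, CTRL replicate 2, TMAO 48H replicate 1 or TMAO 48H replicate 2, with values from -0.16 to -0.24. LAMA4 per 100 counts of LAMA5, chosen after its values were seen, was 118, 119 and 108 in CTRL, 136, 139 and 132 at TMAO 24H and 114, 110.2 and 106 at TMAO 48H. It was higher in each library at TMAO 24H than in any other library. LAMA5 shares bases with ADRM1 on the opposite strand, and ADRM1 had a log2 fold change of -0.16 (adjusted p = 0.0617) at TMAO 48H. Whether reads were counted by strand is not given in the sources used here, so the 2 cannot be told apart where they overlap.

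LAMA3 and LAMB3 encode laminin chains known from epithelial basement membranes. LAMA3 counted 1134, 976 and 1129 in CTRL, 1083, 1039 and 1133 at TMAO 24H and 1386, 1448 and 1128 at TMAO 48H. Replicates 1 and 2 at TMAO 48H lay above all other libraries, and replicate 3 lay within CTRL. The log2 fold change at TMAO 48H was 0.29 (SE 0.0858, adjusted p = 0.0476), and 0.39 (adjusted p = 0.00466) without TMAO 48H replicate 3. It did not pass when any other library of the comparison was left out, with values from 0.22 to 0.33 and adjusted p up to 0.193, nor in 5 of 11 other settings. LAMB3 counted 734, 708 and 667 in CTRL, 674, 681 and 761 at TMAO 24H and 696, 615 and 484 at TMAO 48H. Its value at TMAO 48H was -0.23 (SE 0.105, adjusted p = 0.184), and -0.10 (adjusted p = 0.458) without replicate 3, which was the lowest of the 9 libraries. Without TMAO 48H replicate 1 it passed, at -0.35 (adjusted p = 0.0340).

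The same library, TMAO 48H replicate 3, was low in the epithelial keratins, with 125 normalised counts of KRT5 and 67.9 of KRT14. In the other 8 libraries KRT5 ranged from 763 to 1630.2 and KRT14 from 552 to 1067. Of the 11 epithelial markers 10 were tested, and none passed at either time. Their part in the values of LAMA3 and LAMB3 was not tested.

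**Figure D4:**
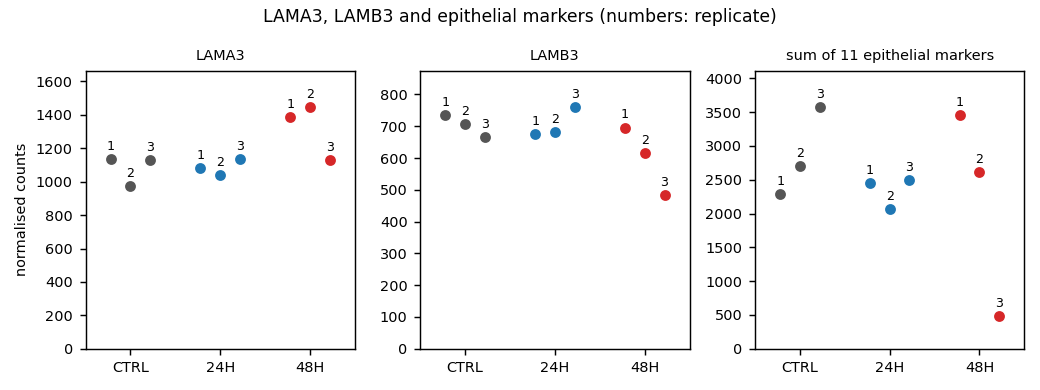
Normalised counts of LAMA3 and LAMB3 and the sum of 11 epithelial markers in each library, with the replicate number above each point (axes start at 0). TMAO 48H replicate 3 is the lowest library for LAMB3 and the marker sum, at 484 and 491, and lies below its 2 replicates for LAMA3.

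LAMC3 and LAMA2 were scarce. LAMC3 ranged from 10.6 to 22.4 normalised counts over the 9 libraries, and LAMA2, the muscle laminin alpha 2 chain, from 2.99 to 17.9. The 95% interval of the LAMA2 log2 fold change at TMAO 48H, -1.25 to 1.04, shows how little this depth resolves.

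The 4 collagen-binding alpha subunits pair with beta 1. Among them ITGA11, a receptor for fibrillar collagen known from fibroblasts, fell at TMAO 48H. Its normalised counts were 1852, 1755 and 1356 in CTRL, 1637, 1444 and 1576 at TMAO 24H and 946, 1056 and 1155 at TMAO 48H. The libraries at TMAO 48H lay below all 6 others, and TMAO 24H lay within CTRL, whose replicate 3 was the lowest control. The level was 0.636 times that in CTRL, a log2 fold change of -0.65 (SE 0.101, adjusted p = 0.00164), and against TMAO 24H the value was -0.56 (SE 0.101, adjusted p = 0.00386). ITGA2, a collagen receptor also present on platelets, had a log2 fold change of 0.14 (SE 0.0534, adjusted p = 0.123) at TMAO 48H, and ITGA1 had 0.032 (SE 0.0610, adjusted p = 0.790). ITGA11 per 100 counts of ITGA2, chosen after its values were seen, was 115, 117 and 96.6 in CTRL, 96.3, 90.1 and 96.5 at TMAO 24H and 58.7, 62.5 and 69.3 at TMAO 48H. Here too TMAO 48H lay below all other libraries.

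ITGA10, a collagen receptor known from cartilage, did not pass at TMAO 48H with all libraries, at -0.31 (SE 0.0978, adjusted p = 0.0600). It passed without TMAO 48H replicate 3, at -0.45 (adjusted p = 0.00357), and its normalised counts at TMAO 48H were 971, 1158 and 1394 against 1517, 1488 and 1365 in CTRL. Without TMAO 48H replicate 1 it was -0.19 (adjusted p = 0.132). With all libraries it passed with DESeq2 (adjusted p = 0.0111), with length correction (0.0288), without ribosomal RNA genes (0.0430) and with a minimum of 10 counts per library (0.0471).

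Beside ITGA11, the 12 fibroblast or mural markers had a summed level of 29924 to 34754 normalised counts in CTRL, 30258 to 32589 at TMAO 24H and 19730 to 21536 at TMAO 48H. Most of this sum came from the collagen I genes COL1A1, with a log2 fold change of -0.67 (SE 0.0574, adjusted p = 2.15e-05) at TMAO 48H, and COL1A2, with -1.08 (SE 0.0772, adjusted p = 5.95e-06). ACTA2 at 0.74 (SE 0.118, adjusted p = 0.00194) and THY1 at 0.47 (SE 0.0715, adjusted p = 0.00147) rose. Of the defining markers DCN and LUM were at or near 0, with at most 2.24 and 1.16 normalised counts in any library. The part of these markers in the fall of ITGA11 was not tested.

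Of the laminin-binding alpha subunits, none passed against CTRL, and ITGA6 passed between the treated groups. ITGA6 pairs with beta 1 or beta 4 and counted 6686, 6392 and 6005 in CTRL, 6759.8, 6511 and 6960.4 at TMAO 24H and 5835, 6242 and 5697 at TMAO 48H. The groups TMAO 24H and TMAO 48H did not overlap, while each overlapped CTRL. Its log2 fold change between TMAO 48H and TMAO 24H was -0.19 (SE 0.0494, adjusted p = 0.0360), and it did not pass when any library of the comparison except TMAO 48H replicate 2 was left out, with values from -0.16 to -0.21. ITGA3, the partner of beta 1 for laminin-511, had 15235 ± 1066 normalised counts in CTRL and 13587 ± 280.1 at TMAO 48H (SD, n = 3), a log2 fold change of -0.17 (SE 0.0528, adjusted p = 0.0638). ITGA3 passed with DESeq2 (adjusted p = 0.0132), with length correction (0.0209), without ribosomal RNA genes (0.0485) and, at -0.23, without CTRL replicate 3 (0.00770), and was -0.082 (adjusted p = 0.371) after GC correction. ITGA7, the laminin receptor of muscle, was far lower at 115 ± 5.86 in CTRL and 149 ± 11.9 at TMAO 48H, a log2 fold change of 0.36 (SE 0.117, adjusted p = 0.0652), and of 0.44 (adjusted p = 0.0411) after GC correction. The ITGA7 groups did not overlap, and it was the only one of the 13 such genes with a higher level at TMAO 48H.

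Among the alpha subunits that bind the RGD sequence of fibronectin and vitronectin, ITGA5 fell and ITGAV did not pass. ITGA5 counted 18612, 18014 and 15792 in CTRL, 16502, 15919 and 17098 at TMAO 24H and 13644, 13680 and 15054 at TMAO 48H. The libraries at TMAO 48H lay below all others, and replicate 3 was the lowest control. It changed by a log2 value of -0.31 (SE 0.0621, adjusted p = 0.00790) against CTRL and -0.22 (SE 0.0621, adjusted p = 0.0436) against TMAO 24H. The second did not pass when any library of the comparison except TMAO 48H replicate 3 was left out, with values from -0.20 to -0.25. ITGAV, the partner of beta 3, beta 5 and beta 8, was measured at 7316 ± 164 in CTRL and 7254 ± 182 at TMAO 48H, with a 95% interval of the log2 fold change of -0.10 to 0.071. ITGA2B, the platelet subunit, ranged from 29.2 to 45.9 normalised counts. Of the 7 platelet markers, PF4 and GP1BB were at 0 in all 9 libraries, while 3 had counts in every library. The list summed to 73.0 to 114 normalised counts in CTRL, 82.4 to 110 at TMAO 24H and 88.5 to 109 at TMAO 48H.

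ITGA4, the alpha subunit of the receptor for VCAM1 and for a spliced segment of fibronectin, counted 3242, 3070.3 and 2892 in CTRL, 3313, 3323 and 3308 at TMAO 24H and 2387, 2502 and 2342 at TMAO 48H. Levels at TMAO 24H lay above all of CTRL and levels at TMAO 48H below all of it. ITGA4 had a log2 fold change of 0.11 (SE 0.0462, adjusted p = 0.660) at TMAO 24H, -0.35 (SE 0.0462, adjusted p = 0.000580) at TMAO 48H and -0.46 (SE 0.0463, adjusted p = 4.37e-05) between them. ITGA9, its relative, ranged from 11.6 to 27.3 normalised counts with overlapping groups. The leukocyte subunits ITGAE and ITGAX were low as well, at 76.2 to 125 and 19 to 33.8, and neither passed in any comparison.

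Of the 6 tested beta subunits, ITGB5 and ITGB8, both partners of alpha V, fell at TMAO 48H. ITGB5 counted 7645, 7847 and 7332 in CTRL, 7535, 7484 and 7847 at TMAO 24H and 5909.8, 5636 and 5894 at TMAO 48H. Every library at TMAO 48H lay below every other, and the spread within groups was small. The level was 0.764 times that in CTRL, a log2 fold change of -0.39 (SE 0.0408, adjusted p = 9.48e-05), and -0.39 (SE 0.0408, adjusted p = 5.79e-05) against TMAO 24H, while the value at TMAO 24H was 0.0027 (SE 0.0408, adjusted p = 0.994). Its share of the beta subunits per kilobase was 13.3% ± 0.250 in CTRL, 12.99% ± 0.319 at TMAO 24H and 10.3% ± 0.482 at TMAO 48H (SD, n = 3). ITGB5 per 100 counts of ITGB3, chosen after its values were seen, was 353, 342 and 364 in CTRL, 337, 344 and 364 at TMAO 24H and 261, 237 and 269 at TMAO 48H. The ratio at TMAO 48H lay below all other libraries.

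ITGB8, whose product binds latent TGF-beta with alpha V, was present at a lower level. It counted 437, 432 and 443 in CTRL, 434, 395 and 368 at TMAO 24H and 331, 343 and 337 at TMAO 48H. Its libraries at TMAO 48H lay below all others, and TMAO 24H reached from below to within CTRL. The log2 fold change was -0.38 (SE 0.0767, adjusted p = 0.00800) against CTRL and -0.24 (SE 0.0767, adjusted p = 0.0735) against TMAO 24H, where it passed after GC correction, at -0.30 (adjusted p = 0.0264), and after length correction, at -0.28 (adjusted p = 0.0389). ITGB3, the beta subunit of the vitronectin receptor, had 2157 ± 141 normalised counts in CTRL and 2277 ± 92.3 at TMAO 48H (SD, n = 3). ITGB1 had 39474 ± 809.7 and 40053 ± 1614, with a 95% interval of the log2 fold change at TMAO 48H of -0.088 to 0.13. ITGB4, the partner of alpha 6 in hemidesmosomes, had a log2 fold change of -0.069 (SE 0.0415, adjusted p = 0.322), and ITGB6, an epithelial subunit, ranged from 1.2 to 14.6 normalised counts.

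**Figure D5:**
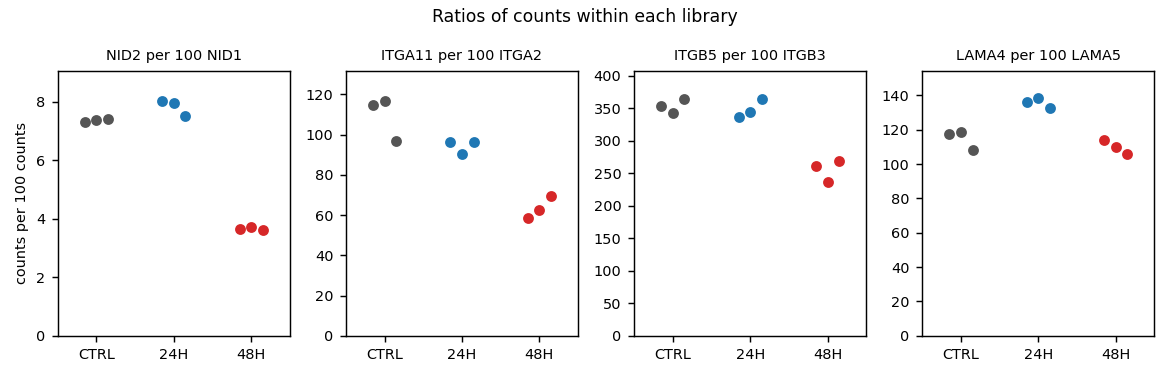
Ratios of counts within each library for 4 pairs of related genes, as counts of the first gene per 100 of the second, with 1 point per library grouped as CTRL, TMAO 24H and TMAO 48H (axes start at 0). NID2 per 100 NID1 lies between 3.61 and 3.72 at TMAO 48H and between 7.30 and 8.02 in the other 6 libraries, and LAMA4 per 100 LAMA5 is highest at TMAO 24H.

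In the GENCODE and RefSeq annotations, NID2 shares bases with C14orf166 on the opposite strand, which had a log2 fold change of -0.065 (adjusted p = 0.493) at TMAO 48H. LAMB1 overlaps DLD, also on the opposite strand, at 0.070 (adjusted p = 0.332), and ITGA7 overlaps BLOC1S1 on the opposite strand, at -0.074 (adjusted p = 0.729). ITGAE, with a mean of 94.7 counts, overlaps GSG2 on the opposite strand, with 835, and ITGB7, with 6.33, overlaps ZNF740 there, with 2545. Reads of genes that overlap on opposite strands cannot be told apart without strand. ITGA1, with a mean of 1121.5 counts, overlaps PELO on the same strand, with 721.5, where strand would not part them.

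Genes around this group were counted from 4 lists, whose counts are to be read against the 5.29% of all tested genes that were lower and the 5.14% that were higher at TMAO 48H. Of 28 tested integrin adaptors and kinases, which tie integrins to actin and to signalling, 2 fell at TMAO 48H and none rose, so that the share that fell was near that of all genes. These were LIMS1 (PINCH), with a log2 fold change of -0.14 (SE 0.0362, adjusted p = 0.0277), and ILK, with -0.14 (SE 0.0366, adjusted p = 0.0329), whose products form 1 complex on beta subunit tails. None of this list passed at TMAO 24H.

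Of 18 tested other basement membrane components, 5 fell and 3 rose at TMAO 48H and none passed at TMAO 24H. FN1, the fibronectin bound by alpha 5 beta 1 and the alpha 4 integrins, fell with a log2 fold change of -0.60 (SE 0.0981, adjusted p = 0.00223). MATN2 and FBLN1, both secreted matrix proteins, rose with 0.51 (SE 0.0692, adjusted p = 0.000645) and 0.40 (SE 0.108, adjusted p = 0.0341). COL4A1 and COL4A2, which encode the collagen IV chains that nidogens link to laminin, were named after their values were seen, and had -0.069 (SE 0.0580, adjusted p = 0.500) and -0.14 (SE 0.0568, adjusted p = 0.141).

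Of 22 tested other laminin receptors and genes of the dystroglycan complex, 3 rose and 1 fell at TMAO 48H. BCAM, the Lutheran receptor for laminin alpha 5, rose with 0.19 (SE 0.0454, adjusted p = 0.0179). POMT2, an enzyme that starts the sugar chain on dystroglycan, fell with -0.22 (SE 0.0590, adjusted p = 0.0340). Of 22 tested other integrin ligands, 5 fell and 2 rose at TMAO 48H, and 2 fell at TMAO 24H, CTGF and CYR61. CYR61 had a log2 fold change of -0.54 (SE 0.0612, adjusted p = 0.00300) at TMAO 24H and was 1 of those that rose at TMAO 48H, with 0.44 (SE 0.0611, adjusted p = 0.000751). CTGF had -0.55 (SE 0.0579, adjusted p = 0.00300) at TMAO 24H and 0.18 (SE 0.0577, adjusted p = 0.0618) at TMAO 48H. TGFBI, a ligand of several integrins, fell with a log2 fold change of -1.06 (SE 0.0694, adjusted p = 3.48e-06) and LTBP1, which holds latent TGF-beta in the matrix, with -0.64 (SE 0.0527, adjusted p = 1.98e-05). ICAM1, the ligand of the leukocyte integrins, rose with 0.78 (SE 0.0662, adjusted p = 2.09e-05). The receptor subunits for ICAM1 in leukocytes, ITGAL, ITGAM and ITGB2, were among the genes below the filter.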

How the data were processed

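RNA from HMEC-1 was sequenced in 9 libraries, grouped by their labels. The authors used the nf-core RNAseq pipeline version 3.6 and Trim Galore and deposited estimated counts (expected counts) per gene symbol without normalisation. The quantifier, genome build and annotation are not given in the sources used here, so no coordinates are given for the counted genes. Promoter coordinates and gene overlaps are those of the reference annotations.

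Estimated counts were rounded and fitted in R 4.3.3 with edgeR 4.0.16 over all 9 libraries (filterByExpr, TMM, glmQLFit with legacy = FALSE). The 3 comparisons tested were TMAO 24H and TMAO 48H against CTRL and TMAO 48H against TMAO 24H. The biological coefficient of variation was 0.0744. Standard errors came from the F statistic. DESeq2 1.42.0 and the other alternatives are given in the closing section. Lengths and GC content came from the transcripts of GENCODE release 29, found for 89.8% of tested genes and all 42 members. Promoters came from RefSeq.

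Data were simulated for TMAO 48H against CTRL over 14740 genes, with changed genes drawn from those with a mean of at least 50 counts. The simulated spread was estimated without TMM factors, unlike the spread in the fit of the real libraries. At an adjusted p under 0.05 in edgeR's test, without the 1.4-fold requirement, 97 of 100 genes changed by 2-fold were recovered. Of 100 genes changed by 1.5-fold, 49 were recovered, and there were 10 false calls. Because the spread was set differently, these counts do not give the share of such changes that the test finds in the real libraries.

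Members, lists and roles were chosen with earlier results of these data known. Members are named except 1 that is not reported here, and values in every library are given for those with an adjusted p under 0.05 in any comparison and a mean of at least 50 normalised counts. For other genes, up to 3 per list with the largest change at TMAO 48H are named where reported. Marker lists were counted likewise. Of the platelet list 3 of 7 genes and of the leukocyte list 3 of 10 were tested. RT-qPCR and metabolite data were not analysed here.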

Additional observations from a re-analysis of the deposited data

Results flagged for a closer look

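For 7 genes the level at TMAO 48H differed from that at TMAO 24H in edgeR's quasi-likelihood fit (Benjamini-Hochberg adjustment over all tested genes). Both values against CTRL use the same control libraries, so their difference is that between the treated groups. TMAO and time in culture cannot be told apart in it. The difference in log2 fold change was -1.07 for NID2, -0.56 for ITGA11, -0.46 for ITGA4, -0.39 for ITGB5 and -0.37 for LAMA4. It was smaller for ITGA5 at -0.22 (adjusted p = 0.0436) and ITGA6 at -0.19 (adjusted p = 0.0360). For ITGA4, LAMA4 and ITGA6 the value against CTRL was above 0 at TMAO 24H (0.11, 0.075 and 0.084) and below 0 at TMAO 48H (-0.35, -0.30 and -0.10), and of these 6 values only those of ITGA4 and LAMA4 at TMAO 48H passed the test.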

How the results depend on the processing

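All 289 values of the 17 gene and comparison pairs that passed kept their direction under every alternative run (DESeq2, RLE factors, the replicate block, a fit of the 2 groups alone, edgeR's earlier quasi-likelihood method, a minimum of 10 counts per library, no filter, GC or length correction, removal of ribosomal RNA genes, both libraries that stood apart left out, which was chosen after seeing the data, and leaving out each library). NID2, ITGA11, ITGB5, ITGB8, ITGA4 and ITGA5 passed at TMAO 48H against CTRL in all of them, as did NID2, ITGA11, ITGA4, ITGB5 and LAMA4 against TMAO 24H. At TMAO 24H the count of genes past the test was 0, and 1 (AGRN) with DESeq2 and 1 (AGRN) with length correction. Leaving out each library in turn gave 0 to 0 at TMAO 24H, 6 to 12 at TMAO 48H and 5 to 8 between the treated groups, and with the 1.4-fold threshold 0 to 0, 2 to 2 and 2 to 3. A log2 threshold of 0.4 gave 0, 2 and 3.

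Libraries with the same replicate number were not more alike than those with different numbers. This check cannot exclude a shared culture or day, as each group holds only 3 libraries. Deviations from group means correlated at -0.12 to 0.091 between the 9 pairs with the same number and at -0.10 to 0.16 between the 18 with different numbers. With the replicate number as a block, 0, 8 and 5 genes passed and 0, 2 and 2 were called with 1.4-fold. LAMA3 and LAMA5 at TMAO 48H and ITGA5 and ITGA6 between the treated groups did not pass with it. Levels per kilobase depend on the transcript chosen, and with the mean transcript length ITGB1 was at 37178 and ITGA4 at 2156. With that length ITGA5 and NID1 were no longer close in CTRL, and LAMA4 and LAMA5 were closer. Genes under about 20 normalised counts, such as LAMA2 and ITGB6, carry intervals too wide to show changes of the size seen here.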

Other observations

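Shares within each family of subunits, per kilobase of the longest transcript, are given without a test and depend on the length chosen. Of all integrin alpha subunits, ITGA5 made up 35.0% ± 0.769 in CTRL, 33.8% ± 0.417 at TMAO 24H and 32.5% ± 1.1 at TMAO 48H (SD, n = 3). The share of ITGAV, the partner of beta 5 and beta 8, was 10.4% ± 0.711, 10.96% ± 0.515 and 11.9% ± 0.230. Of the laminin alpha chains, LAMA4 made up 64.4% ± 1.4, 67.9% ± 0.502 and 62.5% ± 0.356, and LAMA3 3.35% ± 0.426, 3.35% ± 0.0783 and 4.88% ± 0.817. A share moves with every other gene of its family, so it does not show the level of 1 gene.

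Per 100 counts of ITGB1, the beta partner of alpha 4 and alpha 5, ITGA5 counted 46.3, 45.5 and 40.9 in CTRL, 40.8, 39.0 and 42.2 at TMAO 24H and 32.9, 33.8 and 39.3 at TMAO 48H. The TMAO 24H and TMAO 48H libraries overlapped in this ratio. ITGA4 counted 8.07, 7.75 and 7.49 in CTRL, 8.20, 8.13 and 8.17 at TMAO 24H and 5.76, 6.18 and 6.12 at TMAO 48H, so that each library at TMAO 48H lay below all others. The tested integrin, laminin and linker genes had a median GC content of 51.9% and a median length of 5720 bases, against 48.7% and 3615 bases for all tested genes with a value.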
